A study of Mus musculus with 22 samples.

Results

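The NRF2 antioxidant response genes described here were 10 genes named by symbol: Nfe2l2, Nqo1, Hmox1, Gclc, Gclm, Txnrd1, Srxn1, Slc7a11, Gsr and Prdx1. All 10 were found among the 55401 gene identifiers of the count tables, and all 10 were expressed highly enough to be tested in every comparison. Nfe2l2 encodes NRF2, and the other 9 were taken because they are textbook targets of it, and the rule uses no measured value.

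Expression was measured by RNA sequencing of poly(A) RNA in 22 libraries of mouse embryonic fibroblasts (MEFs), primary cells grown from C57BL/6 embryos after removal of the head and viscera. In the S6K1 set, wild-type (WT) MEFs were sampled at passage 3 (early, 4 libraries) and passage 8 (late, 4 libraries), and S6K1 knockout (KO) MEFs at passage 8 (late, 3 libraries). In the S6K1/S6K2 set, WT MEFs were sampled at passage 3 (4 libraries) and passage 8 (4 libraries), and double knockout (DKO) MEFs lacking S6K1 and S6K2 at passage 8 (3 libraries). All groups were kept in atmospheric oxygen, under which serially passaged MEFs reach replicative senescence, and the deletions were germline and present in every cell of the embryo. WT and KO MEFs of the S6K1 set came from littermates, whereas DKO embryos came from S6K2-null crosses and their WT controls from WT mothers of earlier breeding stages. Genotype and litter therefore cannot be told apart in the S6K1/S6K2 set, and none of the libraries is of KO or DKO MEFs at the early passage. The labels give no embryo or mother for a library, so p-values below measure only the spread between these libraries.

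NRF2 is a transcription factor that the adaptor KEAP1 marks for degradation in unstressed cells. When electrophiles or peroxides modify KEAP1, NRF2 accumulates, pairs with a small MAF protein and binds antioxidant response elements (AREs) near genes for glutathione synthesis, thioredoxin recycling, quinone detoxification and haem breakdown. In fibroblasts the pathway is known for resistance to oxidative damage, including that of culture in high oxygen.

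The DNA near the start of these genes is shown first, since the ARE is what NRF2 is known to read. RefSeq start-site windows of GRCm38.p6, each 250 bases before and 50 after a start, were matched by symbol for 7 of the 10 genes (9 windows, 3 of them for Txnrd1). Hmox1, Gclc and Gsr had no entry. The ARE core TGACNNNGC was searched on both strands and was found in 5 of the 9 windows, 1 each of Nfe2l2, Gclm, Txnrd1, Srxn1 and Prdx1, against 12.4% of all 32851 windows. No match lay in the windows of Nqo1 or Slc7a11. Only this form of the core and only these windows were searched, so AREs of another form or further away were not looked for. The letters are a match only, and no binding was measured. The 4 sequences below are the 250 bases before the start in which the core lies upstream, 5' to 3' on the gene's strand, with the core in capitals. They are chr2:75704664-75704913 (minus strand) for Nfe2l2, chr3:122245307-122245556 (plus) for Gclm, chr10:82858956-82859205 (plus) for the second Txnrd1 window and chr4:116685349-116685598 (plus) for Prdx1.
Nfe2l2: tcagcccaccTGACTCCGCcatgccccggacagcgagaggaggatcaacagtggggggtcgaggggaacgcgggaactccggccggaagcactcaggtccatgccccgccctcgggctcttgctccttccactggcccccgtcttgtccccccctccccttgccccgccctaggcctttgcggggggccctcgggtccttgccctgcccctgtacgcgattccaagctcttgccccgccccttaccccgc
Gclm: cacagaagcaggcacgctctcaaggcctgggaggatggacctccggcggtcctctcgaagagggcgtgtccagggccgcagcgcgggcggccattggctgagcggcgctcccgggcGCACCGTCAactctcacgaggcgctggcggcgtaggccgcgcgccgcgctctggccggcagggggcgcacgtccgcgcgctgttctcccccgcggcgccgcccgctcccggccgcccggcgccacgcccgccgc
Txnrd1: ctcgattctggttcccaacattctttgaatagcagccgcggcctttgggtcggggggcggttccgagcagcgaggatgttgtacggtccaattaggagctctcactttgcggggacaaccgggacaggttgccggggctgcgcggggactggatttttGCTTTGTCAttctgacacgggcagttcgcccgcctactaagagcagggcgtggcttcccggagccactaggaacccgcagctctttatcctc
Prdx1: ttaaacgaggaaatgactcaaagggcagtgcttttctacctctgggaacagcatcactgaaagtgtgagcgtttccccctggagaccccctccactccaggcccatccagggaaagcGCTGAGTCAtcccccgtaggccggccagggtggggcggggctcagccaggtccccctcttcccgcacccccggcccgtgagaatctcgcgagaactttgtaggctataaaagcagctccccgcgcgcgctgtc
Counted from the start, the first base of the core lay at -240 for Nfe2l2, on the strand shown. It lay at -134 for Gclm, -92 for Txnrd1 and -133 for Prdx1, each on the opposite strand, so these 3 read as the reverse complement. Of these 4 genes, Prdx1 alone passed the test in a comparison below with all libraries included. The match of Srxn1 lay downstream of the start, at 29, on the opposite strand.

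Libraries held 10742454 to 17314832 counts, and 3 counts corresponded to 0.161 to 0.290 CPM, a limit that covers counting error only. CPM is a gene's count divided by its library's total and set to a common total, and values below are scaled by the trimmed mean of M-values (TMM) over all 22 libraries. The deleted genes followed the labels: S6K1 (Rps6kb1) was at 63.5 ± 9.15 CPM in late WT and 19.996 ± 5.06 CPM in late KO MEFs, and S6K2 (Rps6kb2) fell from 13.2 ± 2.47 CPM in late WT to 0.811 ± 0.478 CPM in late DKO MEFs (SD, n = 4 and 3). Rps6kb1 in DKO MEFs was at 23.9 ± 4.02 CPM. Of the 4 early WT libraries of the S6K1 set, SG03 and SG05 stood apart on the second and the third principal components. They were also the 2 of these 4 without Y-linked expression. Passage values of the S6K1 set are given without them below. The 20 macrophage markers moved with passage and genotype. Their summed level was 537 to 2052 CPM in the 8 early libraries, 5605 to 12804 CPM in the 8 late WT libraries, 3725 to 5043 CPM in late KO and 916 to 3431 CPM in late DKO libraries. All 19 markers tested were higher in late than in early WT MEFs in both sets, and 18 of the 19 were lower in late DKO than in late WT MEFs. Cd163 was listed at 0 in every library, and no other marker was at 0 in any library. Fibroblast markers summed to 28781 to 39307 CPM in early WT and to 19398 to 26597 CPM in late WT libraries, without overlap, and to 24106 to 27912 CPM in late KO and DKO libraries. Singly, 2 of the 10 fibroblast markers were called lower and 0 higher with passage in each set. Positive estimates were found for 4 in the S6K1 set and 3 in the S6K1/S6K2 set. The mitochondrial share of counts was 1.00 to 1.70% in early WT, 0.704 to 0.857% in late WT and 1.16 to 1.40% in late KO libraries of the S6K1 set. It was 1.30 to 1.57%, 0.987 to 1.71% and 1.09 to 1.23% in early WT, late WT and DKO libraries of the S6K1/S6K2 set. Its part in the comparisons below was not tested. In bulk RNA, fewer cells of a type and less RNA per cell cannot be told apart.

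Per kilobase of exon, the 10 genes spanned a wide range of levels that changed little in order between groups. Prdx1, a peroxiredoxin that reduces hydrogen peroxide, had the highest level in all 6 groups, with group means of 273 to 457 CPM per kb. Hmox1 followed at 56.5 to 128 CPM per kb, then Nfe2l2 and Txnrd1 at 28.2 to 32.9 and 25.7 to 34.9 CPM per kb. The last pair overlapped within their spread and changed places between groups. Srxn1 and Gsr lay between 8.59 and 21.98 CPM per kb, and Gclm, Nqo1 and Gclc between 2.80 and 7.70 CPM per kb. Slc7a11 had the lowest level in all groups, at 0.206 to 0.677 CPM per kb. Slc7a11 rested on 28 to 137 counts per library, so its values carry the most counting error of the 10 genes.

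**Figure D1:**
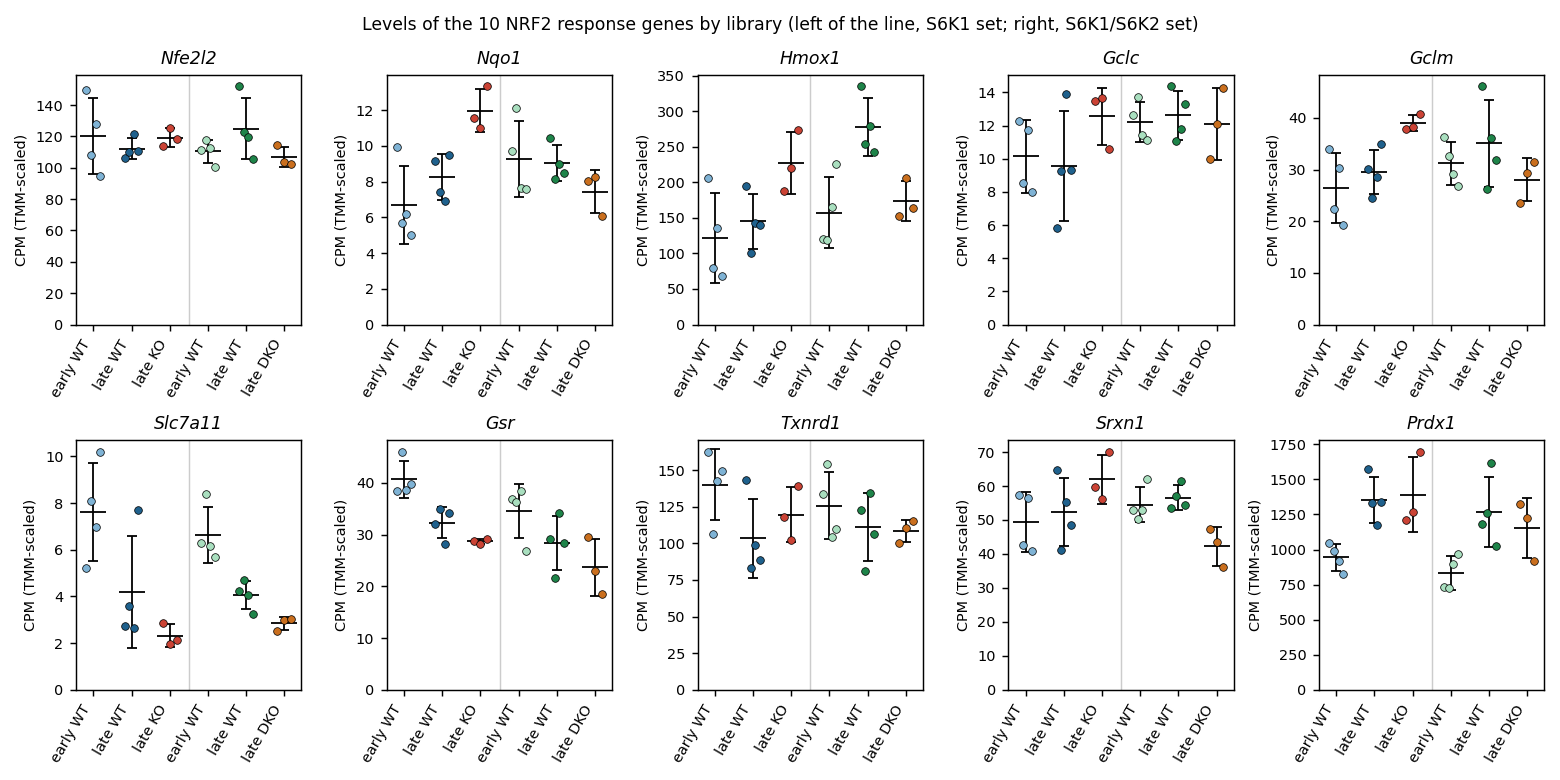
Level of each of the 10 genes in every library, in TMM-scaled CPM on a linear axis from 0, for the 6 groups. Points are libraries, and the bar and whiskers are the group mean and SD. Prdx1 in the S6K1/S6K2 set ran from 725 to 966 CPM in early WT and from 1023 to 1615 CPM in late WT libraries, without overlap.

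The question for the passage comparison is what happened to these genes as WT MEFs went from passage 3 to passage 8. In the S6K1/S6K2 set, 3 of the 10 genes passed the test: Hmox1 and Prdx1 rose and Slc7a11 fell. None of the 10 passed in the S6K1 set (4 at an unadjusted p under 0.05, and 1 with DESeq2). The estimates for Prdx1 and Slc7a11 lay in the same direction there. An unadjusted p under 0.05 was found for 3896 of all 14132 genes tested in that set. Throughout, edgeR's quasi-likelihood test was used, p-values were adjusted by the Benjamini-Hochberg method over all genes tested in a set, and a call needed an adjusted p under 0.05. Of the 14365 genes tested in the S6K1/S6K2 set 13.2% were called, 8.28% as higher and 4.89% as lower. Of the 14132 tested in the S6K1 set 12.9% were called, 6.96% as higher and 5.97% as lower. The 3 calls and the 0 calls among 10 genes are to be read against those shares. Whether the libraries of 2 groups overlapped is given below as a description only. The share of all genes without overlap was not counted.

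Hmox1 (chr8:75093618-75100593, GRCm38.p6) encodes haem oxygenase 1, which breaks haem down to biliverdin, carbon monoxide and iron. It stood at 120.1, 119, 165 and 226 CPM in early WT and at 335, 253, 279.6 and 243 CPM in late WT libraries of the S6K1/S6K2 set. Every late library lay above every early one. The difference was 1.80-fold (log2 fold change 0.85 ± 0.20, SE; adjusted p = 0.0179, edgeR). Early WT values in the S6K1 set were 206, 78.9, 136 and 68.2 CPM and late WT values 196, 101, 143 and 140.1 CPM. These groups overlapped across most of their range (log2 fold change 0.24, 95% interval -0.45 to 0.94; adjusted p = 0.676, edgeR). The early libraries at 78.9 and 68.2 CPM were SG03 and SG05, and without them the estimate was -0.24.

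Prdx1 (chr4:116685599-116700000) was at 734, 725, 897 and 966 CPM in early WT and at 1179, 1258, 1615 and 1023 CPM in late WT libraries of the S6K1/S6K2 set, again without overlap. The rise was 1.56-fold (log2 fold change 0.64 ± 0.18, SE; adjusted p = 0.0330, edgeR). Its levels in the S6K1 set were 1045, 989, 918 and 826 CPM early and 1572, 1332, 1175 and 1342 CPM late. The groups did not overlap there either, but the log2 fold change of 0.52 (95% interval 0.15 to 0.88) had an adjusted p of 0.0623 by edgeR. It passed with DESeq2 (adjusted p = 0.00435) and with all 6 groups in 1 edgeR model (adjusted p = 0.0384). The annotation places AV051173 over part of Prdx1, and whether the counting used strand is not given in the sources used here.

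Slc7a11 (chr3:50364936-50499087) encodes the cystine importer xCT, which supplies cysteine for glutathione. It was at 6.30, 8.38, 6.16 and 5.69 CPM in early WT and at 4.22, 4.70, 4.05 and 3.26 CPM in late WT libraries of the S6K1/S6K2 set. All late libraries lay below all early ones, with a log2 fold change of -0.68 ± 0.21 (SE; adjusted p = 0.0479, edgeR), just under the threshold. The S6K1 set gave 5.20, 8.08, 6.98 and 10.2 CPM early and 2.74, 3.60, 2.65 and 7.73 CPM late. The late library SG23, at 7.73 CPM, lay within the early range. With it the log2 fold change was -0.87 (adjusted p = 0.130, edgeR), and without it -1.34 (adjusted p = 0.0129). Slc7a11 also passed there with 6 groups in 1 model (adjusted p = 0.0448) and with Y-linked expression as a covariate (0.0323).

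The 3 calls in the S6K1/S6K2 set depended on single libraries. Without early WT library SG46 or SG47 none of the 10 genes passed, with adjusted p of 0.0633 and 0.0625 for Hmox1 by edgeR. Without SG48, SG58 or SG59 only Hmox1 did. Hmox1 passed in 6 of 8 fits that each left out 1 library, Prdx1 in 3 and Slc7a11 in 1. Prdx1 did not pass with Y-linked expression as a covariate (adjusted p = 0.0601), and Slc7a11 did not without the filter on low counts (0.131) or with the 2 groups alone (0.0597). With 1 model over all 6 groups Prdx1 passed, whereas Hmox1 (adjusted p = 0.0625) and Slc7a11 (0.111) did not. Calls over all genes fell as well, from 1892 to 885 without SG46 and to 911 without SG47.

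Hmox1 and Prdx1 tended to be higher, and Slc7a11 lower, in libraries with a higher macrophage marker sum. Over the 22 libraries Pearson's r of log2 CPM with the log2 marker sum was 0.58 for Hmox1, 0.77 for Prdx1 and -0.54 for Slc7a11. After taking group means out it was 0.45, 0.63 and -0.44. Against late WT, the median log2 fold change of the markers was -0.88 in KO and -2.40 in DKO MEFs. Hmox1 was at 0.65 and -0.69, Prdx1 at 0.04 and -0.15, and Slc7a11 at -0.84 and -0.52. Hmox1, Prdx1 and Slc7a11 passed in neither of these comparisons. With Y-linked expression as a covariate the KO estimates of Hmox1 and Slc7a11 were smaller in size, as given below. Srxn1, which passed no passage test, had r of 0.48 over all libraries and 0.68 within groups. All points share the same libraries, and the part of the marker-bearing cells in these changes was not tested.

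**Figure D2:**
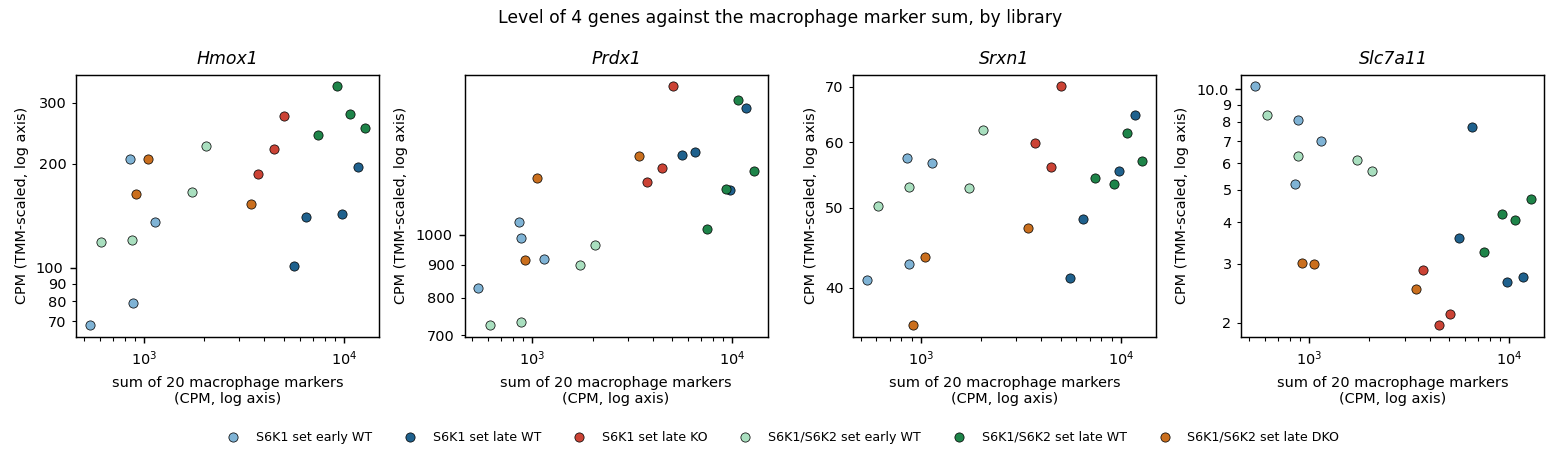
CPM of Hmox1, Prdx1, Srxn1 and Slc7a11 against the summed CPM of 20 macrophage markers, both on log axes, with 1 point for each of the 22 libraries coloured by group. Prdx1 lay higher and Slc7a11 lower in libraries with a higher marker sum (r = 0.77 and -0.54).

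The other 7 genes did not pass in either set. Nfe2l2 itself stood at 94.5 to 149.8 CPM in early WT and 106 to 122 CPM in late WT libraries of the S6K1 set (log2 fold change -0.10, 95% interval -0.42 to 0.22). The S6K1/S6K2 set gave 100.2 to 118 and 106 to 152 CPM (log2 fold change 0.21, interval -0.05 to 0.46). These intervals leave out a change of Nfe2l2 mRNA as large as the 0.85 estimated for Hmox1 in the S6K1/S6K2 set. NRF2, however, is known to be set mainly by protein stability, which was not measured. The glutathione synthesis genes had small estimates. Gclc, the catalytic subunit of glutamate-cysteine ligase, had log2 fold changes of -0.08 and 0.08, and Gclm, its modifier subunit, of 0.15 and 0.20 in the S6K1 and S6K1/S6K2 sets. Gsr, glutathione reductase, was at 38.3 to 46.0 CPM early and 28.2 to 34.8 CPM late in the S6K1 set. Its groups did not overlap there, with a log2 fold change of -0.34 (adjusted p = 0.0829, edgeR), and it passed with the Y-linked covariate (log2 fold change -0.39, adjusted p = 0.0185). The estimate in the S6K1/S6K2 set was -0.26 (adjusted p = 0.336). Txnrd1, cytosolic thioredoxin reductase, had log2 fold changes of -0.44 (adjusted p = 0.165) and -0.15 (adjusted p = 0.576). Without late library SG19, at 143 CPM against 82.9 to 98.8 CPM in the other 3, Txnrd1 passed in the S6K1 set (log2 fold change -0.64, adjusted p = 0.0468, edgeR). Srxn1, the sulfiredoxin that restores overoxidised peroxiredoxins, had a log2 fold change of 0.08 in both sets. Nqo1, a quinone reductase often read as the marker of NRF2 activity, had 0.29 (adjusted p = 0.447) and -0.01 (adjusted p = 0.974).

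Without SG03 and SG05, an alternative added after seeing the data, none of the 10 passed with passage in the S6K1 set. The log2 fold changes were then 0.46 for Prdx1, -0.55 for Slc7a11, -0.56 for Txnrd1, -0.25 for Gsr and 0.030 for Nqo1. Nfe2l2 was at -0.31 and Gclc at -0.33.

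**Figure D3:**
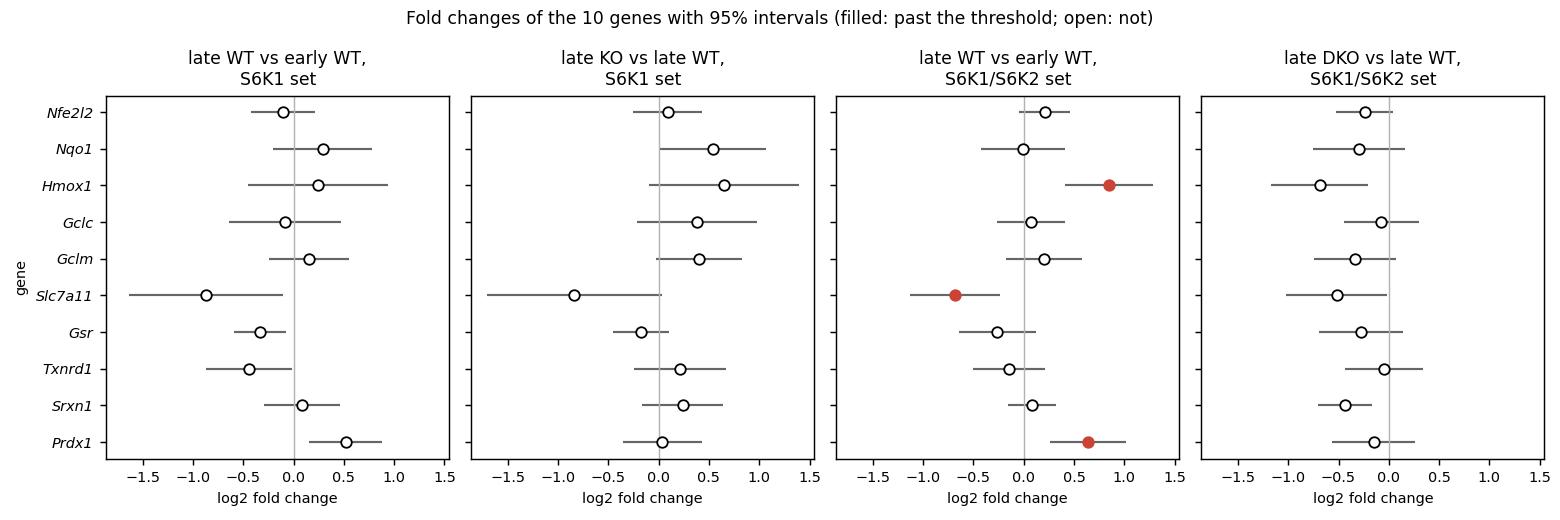
Log2 fold change of the 10 genes in the 4 comparisons within a set, with 95% intervals as lines, filled points for genes past the threshold and open points for the rest. The filled points are Hmox1, Prdx1 and Slc7a11 for late against early WT in the S6K1/S6K2 set, and all 10 estimates lie below 0 for late DKO against late WT.

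The passage differences of the 2 sets were compared directly in 1 model over 14886 genes. None of the 10 genes passed (0 at an unadjusted p under 0.05, and 0 with DESeq2), where 0.712% of all genes did. Of all 14886 genes, 1421 had an unadjusted p under 0.05. The difference of the passage effects, S6K1/S6K2 set minus S6K1 set, was 0.57 for Hmox1 (95% interval -0.26 to 1.41), 0.16 for Slc7a11 (-0.69 to 1.01) and 0.09 for Prdx1 (-0.41 to 0.59) on the log2 scale. Hmox1 was therefore not shown to respond differently in the 2 sets, and the intervals are wide. Without SG03 and SG05 its difference was 1.06 (adjusted p = 0.349, edgeR). Between early WT MEFs of the 2 sets none of the 10 passed (0 with DESeq2), against 0.84% of all genes. The largest difference, for Nqo1, was 0.46 (interval 0.03 to 0.90; adjusted p = 0.221, edgeR), which passed without SG02 (adjusted p = 0.0276) and was 0.20 without SG03 and SG05.

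The second question is whether loss of S6K1, alone or with S6K2, altered these genes at the late passage. None of the 10 genes passed between late KO and late WT MEFs (1 at an unadjusted p under 0.05, and 0 with DESeq2), and 6 of all 14132 genes did (0.0425%). With so few calls over the whole table, 0 calls among these 10 say little. An unadjusted p under 0.05 was found for 1499 of the 14132 genes. The estimates were positive for 8 of the 10, with a median log2 fold change of 0.22 against -0.01 over all genes. Nqo1 was at 11.6, 10.998 and 13.3 CPM in KO and at 9.17, 7.43, 6.89 and 9.51 CPM in late WT libraries. All KO libraries lay above all WT libraries, with a log2 fold change of 0.54 (95% interval 0.01 to 1.06; adjusted p = 0.464, edgeR). Gclm was at 37.9, 38.3 and 40.7 CPM in KO against 30.0, 24.5, 28.6 and 35.0 CPM in late WT libraries, also without overlap (log2 fold change 0.40, adjusted p = 0.510, edgeR). How many of all genes separated KO from late WT libraries in this way was not counted, so the separation adds no support to these estimates. Hmox1 was at 187, 220.4 and 274 CPM in KO libraries and overlapped late WT at 196 CPM (log2 fold change 0.65, interval -0.10 to 1.39; adjusted p = 0.543). Slc7a11 was at 2.88, 1.97 and 2.12 CPM in KO libraries, a log2 fold change of -0.84 (interval -1.71 to 0.03; adjusted p = 0.487) and of -0.37 without late WT library SG23. Y-linked genes were expressed in all 3 KO libraries and in 1 of 4 late WT ones, so genotype and embryo sex were not balanced. With Y-linked expression as a covariate none of the 10 passed either, and the estimate was 0.080 for Hmox1 and -0.29 for Slc7a11. The mitochondrial share moved with genotype too, with no overlap between KO and late WT libraries. The 19 tested macrophage markers all had negative estimates in KO MEFs (median -0.88), none past the threshold.

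Against late WT MEFs, late DKO MEFs gave no call among the 10 genes (3 at an unadjusted p under 0.05, and 1 with DESeq2). Of all 14365 genes 4.78% were called, 0.821% as higher and 3.95% as lower, and 2643 had an unadjusted p under 0.05. All 10 estimates were negative, with a median of -0.29 against -0.01 over all genes. Srxn1 (chr2:152105524-152111376) was at 47.3, 43.6 and 36.0 CPM in DKO and at 53.5, 57.0, 61.5 and 54.3 CPM in late WT libraries. The groups did not overlap, and the log2 fold change was -0.44 ± 0.12 (SE; adjusted p = 0.0648, edgeR). Srxn1 passed with DESeq2 (adjusted p = 0.0298). Hmox1 was at 153, 206 and 163 CPM in DKO libraries, all below the 243 to 335 CPM of late WT libraries and within the range of early WT libraries (log2 fold change -0.69, interval -1.17 to -0.21; adjusted p = 0.108). Slc7a11 was at 2.53, 3.00 and 3.03 CPM, below every late WT library (log2 fold change -0.52, adjusted p = 0.254, edgeR). How many of all genes separated DKO from late WT libraries was not counted, so separation adds no support here either. The remaining 7 estimates ran from -0.34 for Gclm to -0.05 for Txnrd1. Prdx1, at 1324, 1227 and 915 CPM, overlapped late WT (log2 fold change -0.15, interval -0.56 to 0.26). The macrophage marker sum was 3431 CPM in DKO library SG61, 1052 CPM in SG62 and 916 CPM in SG64. Hmox1 was lowest in SG61, whereas Srxn1 and Prdx1 were highest there. The part of the marker-bearing cells in the DKO estimates was not tested. Y-linked genes were expressed in 1 of 3 DKO and 3 of 4 late WT libraries.

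Set side by side, the genotype estimates were positive in KO and negative in DKO MEFs for 8 of the 10 genes, and negative in both for Slc7a11 and Gsr. This count changed with the fit. With Y-linked expression as a covariate the KO estimates of Nfe2l2 and Gclc were negative. With 1 library left out, Prdx1 in KO went as low as -0.13, and Gclc and Txnrd1 in DKO as high as 0.059 and 0.067. The difference, DKO minus KO, ran from -1.32 for Hmox1 to 0.33 for Slc7a11. For the 4 genes with an unadjusted p under 0.05 it was -1.32 ± 0.44 (SE) for Hmox1, -0.82 ± 0.32 for Nqo1, -0.72 ± 0.28 for Gclm and -0.66 ± 0.22 for Srxn1 on the log2 scale. Their adjusted p were 0.307, 0.370, 0.367 and 0.307 (edgeR). None of the 10 passed with edgeR or DESeq2, and 0.00672% of all genes, a single gene, did. An unadjusted p under 0.05 was found for 1626 of all 14886 genes. The 2 genotypes are in different sets with different litters, which cannot be told apart from the second deletion. Embryo sex was also unbalanced, in opposite directions. Y-linked genes were expressed in 3 of 3 KO against 1 of 4 late WT libraries, and in 1 of 3 DKO against 3 of 4 late WT libraries.

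Other genes of the pathway were read from lists of 12 NRF2 regulators, 35 further NRF2 targets and 27 antioxidant enzymes outside the NRF2 lists. Of the further targets 30 were tested. With passage, 7 rose and 0 fell in the S6K1 set (median log2 fold change 0.42), where 6.96% of all genes were called higher and 5.97% lower. In the S6K1/S6K2 set 8 rose and 2 fell (median 0.34), against 8.28% and 4.89% of all genes. All 19 tested macrophage markers rose in the same comparisons (median log2 fold change 2.96 and 2.57), and the part of the marker-bearing cells in the calls among the further targets and the enzymes below was not tested. Without SG03 and SG05, 6 of the 7 were called in the S6K1 set and no others. The largest rises in the S6K1 set were those of Abcc3, a multidrug and bile acid exporter (log2 fold change 2.67), Fth1, the ferritin heavy chain (1.62), the carbonyl reductase Cbr3 (1.24) and Blvrb, a biliverdin reductase (1.08). The largest called changes in the S6K1/S6K2 set were those of the glutathione transferase Gsta3 (3.78), Fth1 (2.11) and Abcc3 (1.48), which rose, and Trib3 (-1.38), a stress-induced pseudokinase, which fell. Gsta3 rested on low levels, 0.17 ± 0.11 CPM early and 2.41 ± 1.10 CPM late, with the early mean near the 3-count limit, so its fitted fold change depends on the prior count. Fth1 stood at 1511 ± 355 CPM early and 6390 ± 1747 CPM late in the S6K1/S6K2 set (SD, n = 4 each). Fth1 has near-identical processed copies elsewhere in the genome, between which the counting could split reads. Blvra, another biliverdin reductase, rose in both sets (log2 fold change 0.79 and 0.77), as did Ftl1, the ferritin light chain (1.06 and 0.91); both are named after their values were seen. Without SG03 and SG05, Ftl1 was at 0.57 in the S6K1 set (adjusted p = 0.121, edgeR). It also lost its call there when SG03, SG05, SG19, SG21, SG22 or SG23 was left out singly, or with the 2 groups alone. In the S6K1/S6K2 set Ftl1 was not called without SG46, SG47, SG48, SG58, SG59 or SG60, or with all 6 groups in 1 model.

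None of the 30 was called in KO MEFs, with 4 at an unadjusted p under 0.05 and 0 called by DESeq2. Of all 14132 genes, 1499 had an unadjusted p under 0.05 there. In DKO MEFs 0 rose and 4 fell (median -0.31), where 0.821% of all genes were called higher and 3.95% lower. The 4 were Abcc3 (-1.45), Blvrb (-1.07), Blvra (-1.06) and G6pdx (-0.87), which encodes the first enzyme of the NADPH-producing pentose phosphate pathway. This count ran from 0 without DKO library SG62 and 1 without SG64 to 7 without SG57 or SG61, and was 2 without SG58 or SG59. The median of the macrophage markers was -2.40 in the same comparison, and the part of those cells in the 4 calls was not tested.

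**Figure D4:**
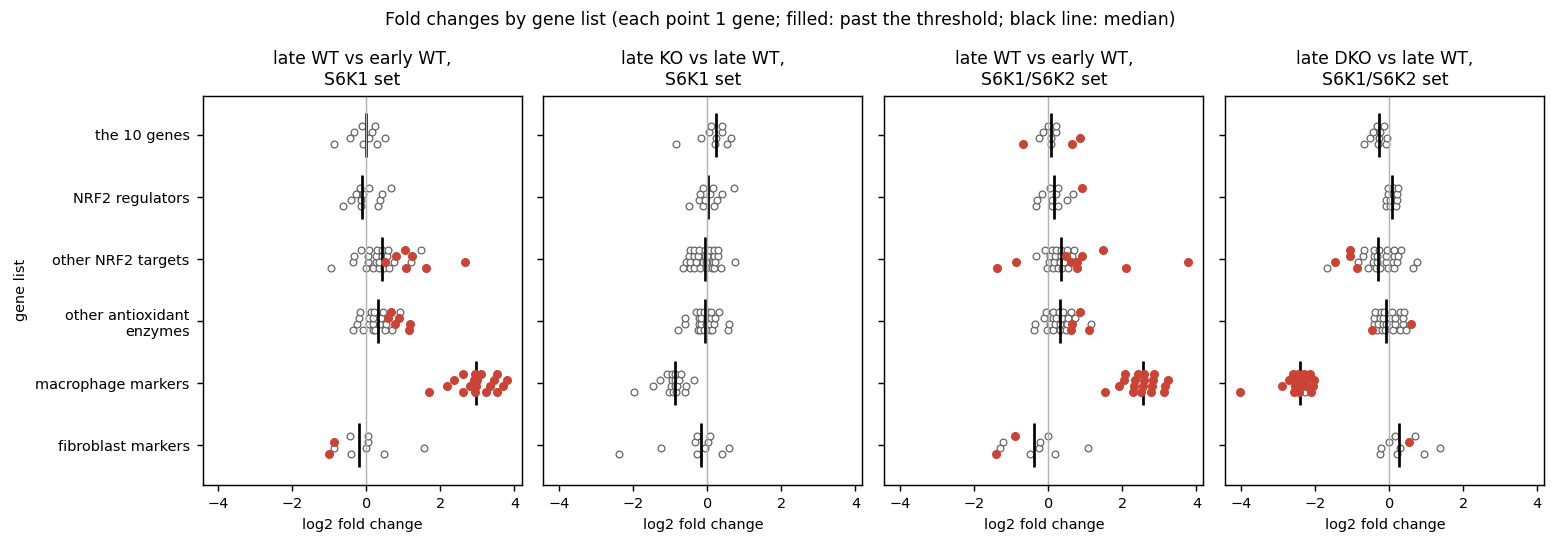
Log2 fold changes by gene list in the 4 comparisons within a set. Each point is 1 gene, filled where it passed the threshold, and black lines are list medians, such as 2.96 for macrophage markers and 0.42 for the further NRF2 targets in late against early WT of the S6K1 set.

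Of the 12 regulators, Mafk alone passed, as higher in late WT MEFs of the S6K1/S6K2 set. Mafk encodes a small MAF partner of NRF2 and was at 19.0 ± 6.63 CPM early and 35.3 ± 4.83 CPM late (log2 fold change 0.92, adjusted p = 0.0171, edgeR). It was not called there without SG46 (adjusted p = 0.0632) or SG47 (0.0550), and 3 regulators were called without SG50. The 1 call of 12 is to be read against the 8.28% of all genes called higher. In the S6K1 set its estimate was 0.67 (adjusted p = 0.0727, edgeR). That estimate was 0.33 without SG03 and SG05 (adjusted p = 0.224) and 0.91 with the Y-linked covariate (adjusted p = 0.00121), under which 3 regulators were called. Mafk also passed in the S6K1 set with DESeq2 (adjusted p = 0.0281) and with all 6 groups in 1 edgeR model (0.0493). By edgeR it passed there without SG02 (adjusted p = 0.0485) or SG04 (0.0330) as well. The repressor genes Keap1 and Bach1 and the autophagy adaptor Sqstm1 did not pass in these 2 comparisons, with log2 fold changes of -0.15 to 0.37. Sqstm1 was, however, among the 3 regulators called without SG50 in the S6K1/S6K2 set. Antioxidant enzymes outside the lists, 26 of 27 tested, gave 6 higher and 0 lower in the S6K1 set and 4 higher and 0 lower in the S6K1/S6K2 set with passage, against 6.96% and 8.28% of all genes called higher. Of the 6, 3 lost their call without SG03 (Cat, Prdx6 and Txnrd2), and 2 without SG19 (Cat and Txnrd2) or without both SG03 and SG05 (Cat and Prdx6). The largest in the S6K1 set were those of Sesn1, a sestrin (1.18), the methionine sulfoxide reductases Msrb2 (1.16) and Msra (0.89), and Prdx6 (0.78). The 4 of the S6K1/S6K2 set were Msrb2 (1.10), catalase Cat (0.84), the mitochondrial superoxide dismutase Sod2 (0.65) and Msrb1 (0.62), of which Sod2 and Msrb1 lost their call when SG46, SG47, SG57, SG58 or SG59 was left out singly, or with the Y-linked covariate, and Sod2 without SG48. In DKO MEFs Cat fell (-0.48) and Sesn3 rose (0.60), where 0.821% of all genes were called higher and 3.95% lower. The call of Cat was lost without SG57, SG58 or SG61, without the filter on low counts or with the Y-linked covariate. That of Sesn3 was lost with all 6 groups in 1 model. Both calls were lost without SG59, SG62 or SG64 or with the 2 groups alone. No enzyme was called in KO MEFs (2 at an unadjusted p under 0.05, and 2 with DESeq2), where 1499 of all 14132 genes had an unadjusted p under 0.05. Between early WT MEFs of the sets, the exporter gene Abcc1 was called among the further targets, as 0.89 higher in the S6K1/S6K2 set on the log2 scale.

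Within groups the 10 genes did not vary as 1 block. Over the 45 pairs, Pearson's r of log2 CPM deviations from the group means in 22 libraries had a median of 0.12, with 30 pairs positive and 11 above 0.5. The highest was that of Hmox1 with Srxn1 (0.77), followed by Nfe2l2 with Gclm (0.64) and Nqo1 with Gclm (0.64). The lowest was -0.54. All of these share the same libraries and are given as descriptions.

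**Figure D5:**
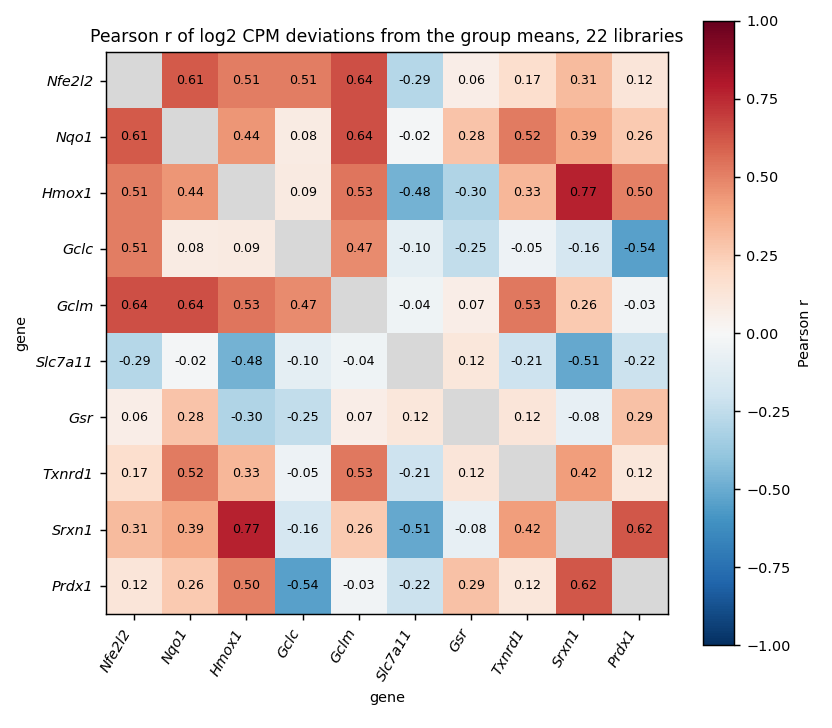
Pearson r between each pair of the 10 genes, from log2 CPM deviations from the group means over 22 libraries, on a colour scale from -1 to 1. Hmox1 with Srxn1 has the highest value, 0.77, and the median of the 45 pairs is 0.12.

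Genes outside the list whose log2 CPM followed a member most closely over the 22 libraries were sought among 10522 genes with a mean of at least 5 CPM. For Hmox1 they were Hspa8, a constitutive chaperone (r = 0.88), the lysosomal protease Ctsa (0.87) and Dda1 (0.86). For Srxn1 they were the malate dehydrogenase gene Mdh2 (0.87), Tuba4a (0.84) and Rhoc (0.84). For Slc7a11 they were Tial1 (0.90), Cxadr (0.89) and 6720463M24Rik (0.88), and for Nqo1 Osbpl9 (0.83), Bre (0.83) and Hadhb (0.82). These values include the differences between groups.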

How the data were processed

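RNA from 22 MEF libraries was sequenced single-end after stranded poly(A) library preparation. The deposited values are whole-number read counts per gene, which the authors made from aligned reads. For aligner and build the sources differ: the study's methods name TopHat, mm9 and HTSeq, and the submitters' processing notes name CASAVA, STAR 2.7.1a, mm10 and DESeq2 1.28.1. The annotation and strand setting of the counting are not given in the sources used here. Of 55401 identifiers, 32589 were given symbols through GENCODE vM1; they hold 96.98% of counts. Exon lengths came from vM1, and gene starts and sequences from RefSeq GRCm38.p6.

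Groups followed the labels. Per set, a model of 3 groups was fitted in edgeR 4.0.16 (R 4.3.3; filterByExpr, TMM, robust quasi-likelihood test) with Benjamini-Hochberg adjustment over all genes (14132 and 14365) and a threshold of 0.05. Differences between sets came from a model of 6 groups (14886 genes). Log2 CPM used a prior count of 2. Intervals are 95%. Alternatives were DESeq2 1.42.0, other scaling, no filter, other sample sets, a Y-linked covariate and leaving out libraries. No pair of libraries in a group was alike within sampling noise (chi-square per degree of freedom 20.6 to 266, 30 pairs).

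Named were all 10 genes, the 4 largest called changes of each list and comparison, and the 3 genes most like each of 4 members; Blvra and Ftl1 in the passage comparison, Txnrd2 and the regulators Keap1, Bach1 and Sqstm1 were named after their values were seen. The genes and lists were chosen with earlier results of these data known.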

Additional observations from a re-analysis of the deposited data

How the results depend on the processing

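Of 698 recomputed log2 fold changes of single genes, 641 kept their direction and side of the threshold, 19 lost a call, 10 gained one and 28 changed sign. None of the sign changes concerned a call; for the differences between sets, only the genes whose values are given above were recomputed. In the S6K1 set with passage, DESeq2 called 1 of the 10 genes, the model of all 6 groups 2 and the Y-linked covariate 3, and leaving out 1 library gave 0 to 1. The covariate gave 3265 calls over all genes there. For KO against WT, calls over all genes were 261 with DESeq2, 43 without the filter, 16 with 6 groups and 38 with the covariate, and 2 to 9 with 1 library left out. With passage in the S6K1/S6K2 set the 10 genes gave 1 call with 6 groups and 0 to 3 with 1 library left out; all genes gave 2845 with DESeq2 and 885 to 2247 with 1 left out. For DKO, DESeq2 called 1 of the 10 genes and 1206 of all genes, and leaving out 1 library gave 97 (without SG62) to 783 over all genes. Between early WT groups, leaving out 1 library gave 0 to 1 of the 10.

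Sign changes with the covariate were those of Nfe2l2 (0.0051) and Gclc (0.084) with passage and of Nfe2l2 (-0.16) and Gclc (-0.059) for KO, all in the S6K1 set. Without SG03 and SG05, an alternative added after seeing the data, Hmox1 was -0.24, Gclm -0.13 and Srxn1 -0.12 with passage in the S6K1 set, and the difference between sets for Slc7a11 was -0.15. With 1 library left out, passage in the S6K1 set gave -0.20 to 0.052 for Nfe2l2, -0.29 to 0.096 for Gclc and -0.032 to 0.19 for Srxn1. KO gave -0.13 to 0.11 for Prdx1. Passage in the S6K1/S6K2 set gave -0.11 to 0.13 for Nqo1 and -0.0035 to 0.12 for Gclc. DKO gave -0.21 to 0.059 for Gclc and -0.16 to 0.067 for Txnrd1. The difference of passage effects gave -0.011 to 0.63 for Slc7a11 and -0.048 to 0.18 for Prdx1. The cause of these changes was not tested. No replicate numbers are shared between groups, and no paired analysis was possible because library codes tie no library to another. Over the same alternatives, calls among the further NRF2 targets ran from 6 to 12 (7 as reported) and 7 to 13 (10) with passage in the S6K1 and S6K1/S6K2 sets, and from 0 to 9 (4) for DKO. Groups of 3 or 4 libraries limit what could be shown, and Slc7a11, with the fewest counts, had the widest interval of the 10 genes in each comparison within a set.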
